A study of Homo sapiens with 15 samples.

Results

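Nuclear-encoded subunits of the respiratory chain and ATP synthase were followed in MOLM-14 cells, a human acute myeloid leukemia line. The members are 76 genes of the 57964 entries in the expression table. They were chosen by symbol (NDUF, SDH, UQCR, CYC1, COX and ATP5 names) and by a mean of at least 1 TPM (transcripts per fixed total of a library's transcripts) over the 8 libraries, and the direction of any response played no part. Of 98 matching symbols, 15 were pseudogenes and 7 had a mean under 1 TPM (COX6A2, COX6B2, COX7A1, COX7B2, COX8C, UQCRHL and ATP5L2). The members comprise 36 genes of complex I, 4 of complex II, 9 of complex III, 10 of complex IV and 17 with ATP synthase (complex V) names. All 76 passed the filter on low values that left 14367 entries for testing. ATP5S and ATP5SL are counted with complex V by name, but they encode assembly factors rather than subunits. The symbol patterns do not take in COX4I1, COX7A2L and NDUFAB1, and these are given separately.

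The RNA-seq experiment had 4 groups with 2 libraries each. Cells electroporated with 100 nM of in vitro transcribed NR4A1 RNA, which encodes an orphan nuclear receptor, were set against cells that received GFP RNA at the same concentration. Cells given 10 uM DHE (dihydroergotamine) were set against cells given its vehicle, DMSO. All were collected after 6 h, all came from a single cell line with an MLL rearrangement, and nothing states that replicates were separate cultures, so p-values measure the spread between these libraries, which may be technical.

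The respiratory chain sits in the inner mitochondrial membrane. Complexes I and II pass electrons from NADH and succinate to coenzyme Q, complex III passes them on to cytochrome c, and complex IV hands them to oxygen. The proton gradient made along the way drives ATP synthase. Most subunits are encoded in the nucleus and imported, while a small core of complexes I, III, IV and V is encoded by mitochondrial DNA. Leukemia cells of this lineage are known to rely on oxidative phosphorylation.

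Promoters of ATP5G1 and ATP5G2, genes of the ATP synthase c ring, are shown because ATP5G1 had the largest fold change of the members with DHE, and ATP5G2 encodes the same mature protein. ATP5G1, ATP5G2 and ATP5G3 (now ATP5MC1, ATP5MC2 and ATP5MC3) encode precursors with different import signals and the same mature c subunit. The windows run from 250 bases before to 50 bases after the start site in RefSeq (GRCh38.p14), and 62 of the 76 members had one, while ATP5G3 is named only. ATP5G1 lies at chr17:48892537-48892836 on the plus strand and ATP5G2 at chr12:53676034-53676333 on the minus strand. Capitals mark an E box (CACGTG) in ATP5G1 and the letters of an NRF1 site (GCGCATGC, here on the other strand) in ATP5G2.
ATP5G1: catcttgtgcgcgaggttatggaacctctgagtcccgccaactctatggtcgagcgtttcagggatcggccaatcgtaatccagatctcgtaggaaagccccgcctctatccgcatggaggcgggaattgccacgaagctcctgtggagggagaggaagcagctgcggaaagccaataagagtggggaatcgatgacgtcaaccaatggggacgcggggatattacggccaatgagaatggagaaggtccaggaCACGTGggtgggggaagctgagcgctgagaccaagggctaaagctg
ATP5G2: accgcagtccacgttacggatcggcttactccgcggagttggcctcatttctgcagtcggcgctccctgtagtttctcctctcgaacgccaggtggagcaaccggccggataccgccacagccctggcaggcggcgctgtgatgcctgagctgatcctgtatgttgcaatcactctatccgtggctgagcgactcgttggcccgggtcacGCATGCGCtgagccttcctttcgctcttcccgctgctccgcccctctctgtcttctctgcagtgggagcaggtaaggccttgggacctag
The ATP5G1 window held CACGTG at bases 5 to 10 of the transcript, counted with the start site as 1, and CCAAT 4 times upstream. The ATP5G2 window held the NRF1 letters once, at bases -40 to -33, and no E box. A match describes the letters only.

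CACGTG, the letters bound by MYC and its relatives, was found in 7 of the 62 member windows (11.3%), close to its share among tested protein-coding genes (10.7% of 8934) and above that of all promoters of this length (7.43% of 27305). The 7 stretches are shown with 10 bases on either side, since 6 of them belong to members that were lower with DHE.
ATP5F1: cagcaaacccCACGTGgtgcacctct
ATP5G1: aggtccaggaCACGTGggtgggggaa
ATP5I: gcgtgcgcctCACGTGacgtcaccgc
NDUFA11: cctggggatgCACGTGctactctctt
NDUFA7: ggagaggagtCACGTGcttcggggag
NDUFS7: ccgcggccccCACGTGcgcactccga
UQCR11: gccgccagacCACGTGgccagaaagc
The stretches lie in GRCh38.p14 with ATP5F1 at chr1:111449231-111449256 (plus strand), ATP5G1 at chr17:48892781-48892806 (plus strand), ATP5I at chr4:674423-674448 (minus strand), NDUFA11 at chr19:5903907-5903932 (minus strand), NDUFA7 at chr19:8321480-8321505 (minus strand), NDUFS7 at chr19:1383710-1383735 (plus strand) and UQCR11 at chr19:1605634-1605659 (minus strand). The E box was present in 6 of 22 windows of members lower with DHE (27.3%) and in 1 of 40 of the other members (2.5%), that of ATP5F1. This split rested on calls from these same data. Over 21 settings of the fit, NDUFA11, ATP5I and NDUFS7 were called in 10, 11 and 12. NDUFA7, UQCR11 and ATP5G1 were called in 15, 20 and 21. ATP5F1, not called in the reported fit but called in 4 of the 21 settings, had a DHE log2 fold change of -0.36. This was further below 0 than that of NDUFS7 (-0.29). Over all tested protein-coding genes it was present in 15.5% of 1943 windows of genes lower with DHE and in 9.33% of 6991 others. NRF1, known as an activator of respiratory genes, had its letters in 13 member windows (21%) against 6.15% of tested protein-coding genes and 3.27% of all. YY1 letters (AAGATGGC) were in 17.7% of member windows against 6% and 3.03%, ETS letters (CCGGAAG) in 29% against 21.6% and 10.7%, and CCAAT in 32.3% against 37.5% and 35.7%. NRF1 letters were in 27.3% of windows of members lower with DHE and in 17.5% of the other members. Motifs were searched on both strands, and these shares are descriptions without a test.

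Levels are given as scaled TPM, the deposited TPM divided by a size factor for each library, and fold changes as log2 differences of log2(scaled TPM + 0.5), which understates the change of low genes. The members summed to 0.79% to 1.22% of all deposited TPM. With vehicle, the mean level ran from 13.7 scaled TPM for ATP5S to 675.9 for ATP5B, the catalytic subunit of ATP synthase, with a median of 113.2 over the members. COX7A2 (455.9), UQCRH (423.5), COX8A (394.4) and ATP5A1 (385.1) followed ATP5B. The highest library stood a median of 1.382 times above the lowest for a member, from 1.09 times for SDHA to 2.25 times for ATP5G1. The isoform pairs of complex IV were one-sided in these cells. COX6A1 (251.7 to 301.0), COX7A2 (299.0 to 467.2), COX6B1 (298.6 to 324.8) and COX8A (293.3 to 396.6) were abundant in all libraries. Their muscle or testis counterparts COX6A2, COX6B2 and COX8C stayed at or below 0.183 TPM, and COX7A1 was listed at 0 throughout.

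Some libraries stood apart. GFP replicate 1 was the lowest of the 8 libraries for 42 members and DHE replicate 2 for 20. Transcripts over the ribosomal RNA precursor took 24.5% of the deposited TPM in GFP replicate 1 and 6.07% in DHE replicate 2, against 0.571% to 2.14% in the other 6. The median member was 0.20 lower (log2) in GFP replicate 1 than in GFP replicate 2, with 65 of 76 members lower, while the vehicle and NR4A1 replicates differed by a median of 0.01 in size. NR4A1 itself reached 720 and 699 scaled TPM in the NR4A1 libraries, against 2.80 and 2.79 with GFP RNA and 1.22 to 1.67 with vehicle or DHE, as the labels say, although these reads include the introduced RNA. Markers listed for monocytic leukemia were mostly present, but not all. CD33 was at 15.1 to 23.3, and FLT3, LYZ, MPO and SPI1 were at 12.3 or more in every library. ITGAM (1.32 to 2.1) and CSF1R (0.601 to 6.6) were low. The general leukocyte gene PTPRC was at 53.2 to 117. T, B and erythroid markers stayed at or below 0.4, and KRT18 alone among epithelial and fibroblast markers was above 1 (12.7 to 18.9). In bulk RNA, fewer cells of a type and less RNA per cell cannot be told apart.

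**Figure D1:**
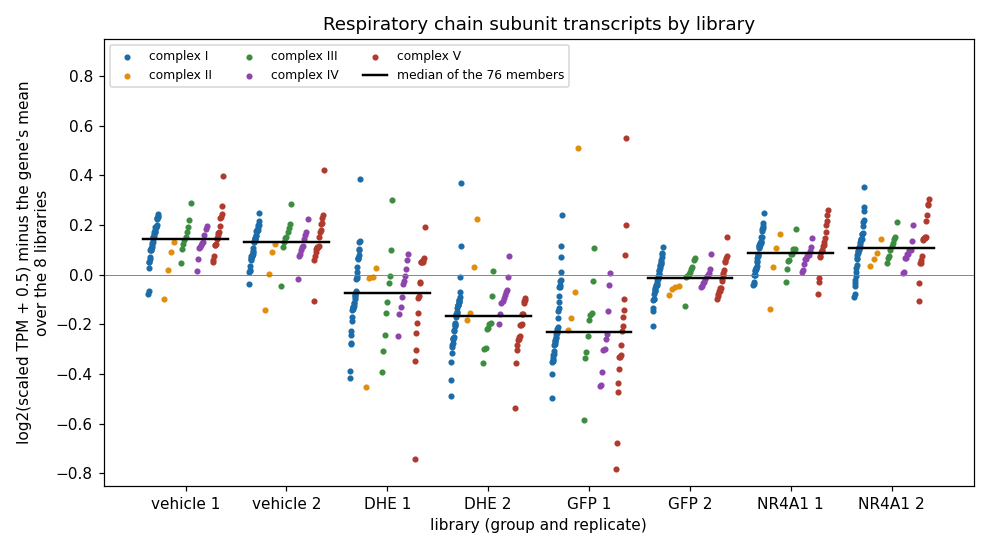
Each point is a member's log2(scaled TPM + 0.5) minus its own mean over the 8 libraries (vertical axis), placed by library (horizontal axis) and coloured by complex, and black lines are medians over the 76 members. The medians were 0.15 and 0.13 with vehicle, -0.07 and -0.17 with DHE, -0.23 and -0.01 with GFP RNA and 0.09 and 0.11 with NR4A1 RNA.

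With DHE, part of the respiratory chain was lower after 6 h, mostly by small amounts. At an adjusted p under 0.05 (limma, Benjamini-Hochberg over all genes tested), 27 of the 76 members were lower with DHE and 1, NDUFC1, was higher. Only ATP5G1 and UQCR10 fell by more than 1.5-fold. The median log2 fold change of the members was -0.25, against 0.04 for all genes tested, and 69 of 76 members were below 0. Of all genes tested, 18.0% were lower and 16.8% higher with DHE, and 10.1% were lower by more than 1.5-fold. Members are abundant, and among 5757 other protein-coding genes with at least 10 scaled TPM with vehicle, 30.2% were lower, with a median of -0.10, so the 35.5% of members called lower stood little above genes of that level. Both DHE libraries were below both vehicle libraries for 61 members (80.3%), against 32.3% of all genes tested and 48.4% of those abundant genes. Counts of lower members moved with the scaling and the libraries. They were 7 without rescaling (12.3% of all genes tested) and 2 with equal totals after leaving out listed ribosomal RNA and polymerase III transcripts (8.24%). With libraries left out they were 4 and 8 without vehicle replicate 1 or 2, 16 without DHE replicate 2, 17 without NR4A1 replicate 1 or 2, and 45 and 44 without GFP replicate 1 or 2, where 9.9% to 21.1% of all genes tested were lower, while the median stayed between -0.29 and -0.21.

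**Figure D2:**
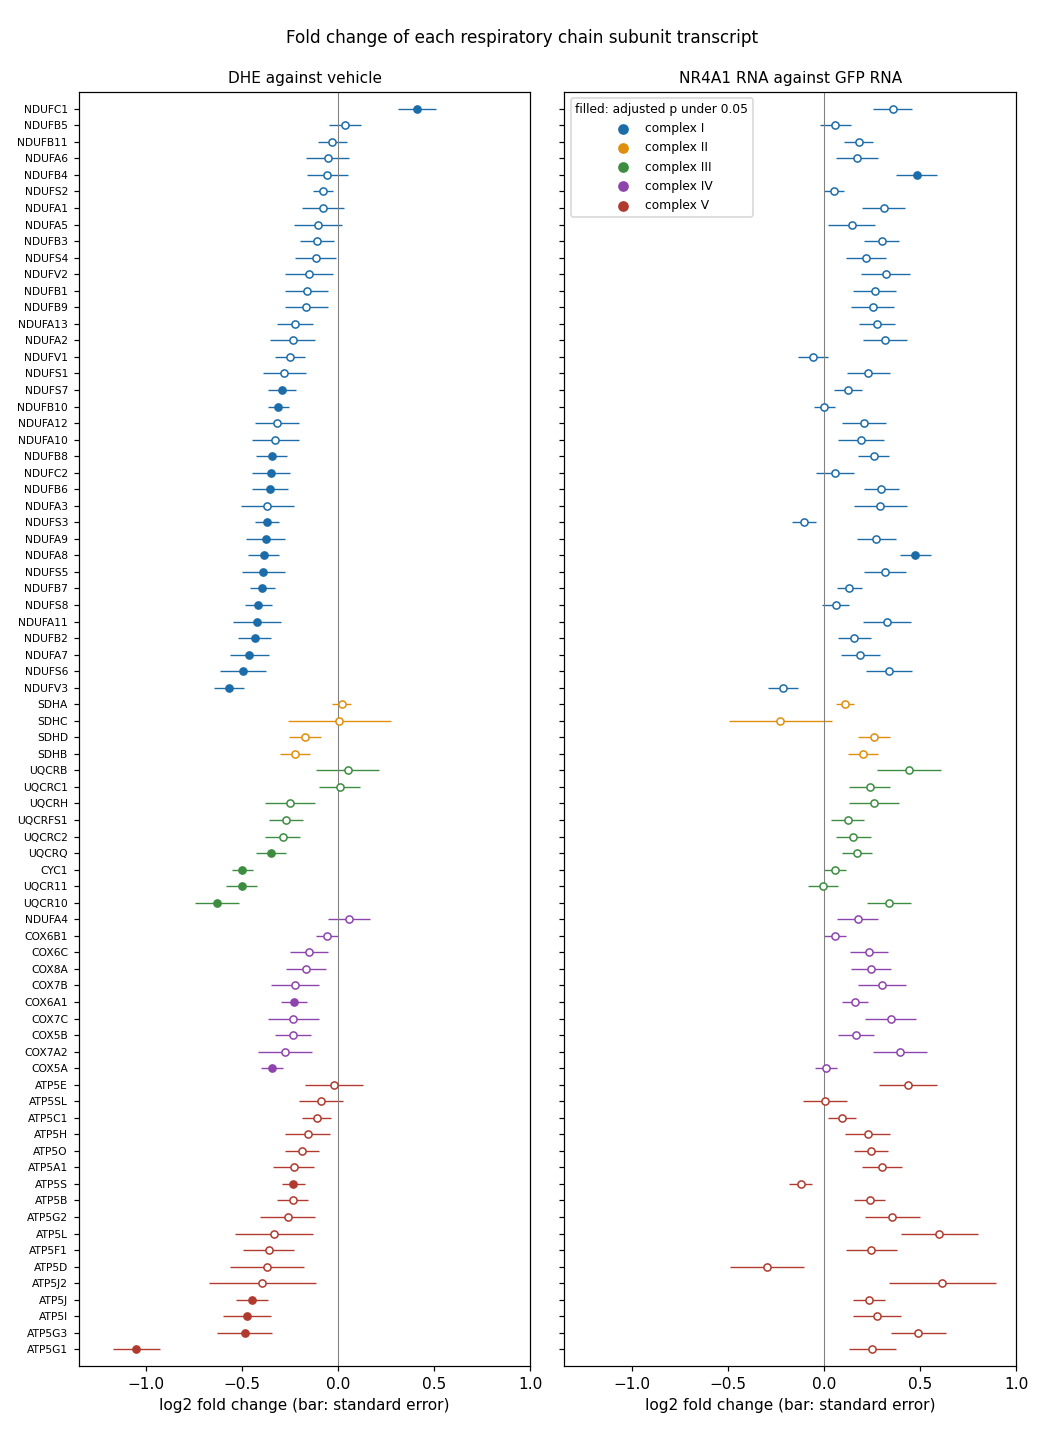
Points are log2 fold changes of the 76 members (rows, by complex) with standard errors, for DHE against vehicle (left) and NR4A1 RNA against GFP RNA (right), and filled points have an adjusted p under 0.05. With DHE, 69 of 76 points lie below 0 and 28 are filled, and with NR4A1 RNA 69 lie above 0 and 2 are filled.

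ATP synthase held the largest single response. Of the 17 genes with complex V names, 5 were lower with DHE (29.4%). This stood against 18.0% of all genes tested and 30.2% of the abundant protein-coding genes. ATP5G1, a c ring gene at chr17:46970127-46973233 (GRCh37, plus strand), measured 175 and 178 scaled TPM with vehicle and 78.9 and 91.1 with DHE, with 118 and 147 with GFP RNA and 152 and 161 with NR4A1 RNA. The DHE libraries were the lowest 2 of the 8. The mean went from 176.2 ± 2.35 to 85.0 ± 8.65 (SD, n = 2 libraries), a log2 fold change of -1.05 ± 0.12 (SE, limma adjusted p = 0.0018), or 51.7% lower, and it passed the threshold in the reported fit and all 20 alternative settings. ATP5G3 measured 191 and 184 with vehicle, 132 and 136 with DHE, 120 and 165 with GFP RNA and 195 and 201 with NR4A1 RNA. It fell with DHE by 0.49 ± 0.14 on the log2 scale (limma adjusted p = 0.042), a call that held in 10 of 21 settings. ATP5G2, the most abundant c ring gene, measured 379 and 380 with vehicle but 352 and 283 with DHE, 258 and 324 with GFP RNA and 366 and 374 with NR4A1 RNA. Its DHE replicate 1 lay near the vehicle libraries and its replicate 2 did not, and its value of -0.26 ± 0.14 missed the threshold (limma adjusted p = 0.20). Whether the ATP5G1 response differed from that of ATP5G2 was not tested.

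The other parts of ATP synthase moved less. Of 7 stalk and membrane genes, ATP5I (subunit e) and ATP5J (coupling factor 6) were lower with DHE. ATP5J measured 96.4 and 93.4 with vehicle and 66.0 and 72.9 with DHE, a log2 fold change of -0.45 ± 0.08 (limma adjusted p = 0.0090). ATP5I measured 283 and 285 with vehicle and 210 and 198 with DHE (-0.48 ± 0.13, limma adjusted p = 0.031). The ATP5J call held in 18 of 21 settings and the ATP5I call in 11. None of the 5 genes of the F1 head passed the test, although all were below 0 with a median of -0.23. ATP5B measured 679 and 673 with vehicle and 588 and 559 with DHE (-0.24 ± 0.08, limma adjusted p = 0.070). The assembly gene ATP5S measured 13.8 and 13.6 with vehicle, 11.3 and 11.8 with DHE, 13.4 and 13.1 with GFP RNA and 11.96 and 12.3 with NR4A1 RNA. It was lower with DHE (-0.23 ± 0.06, limma adjusted p = 0.027), a call that held in 10 of 21 settings.

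**Figure D3:**
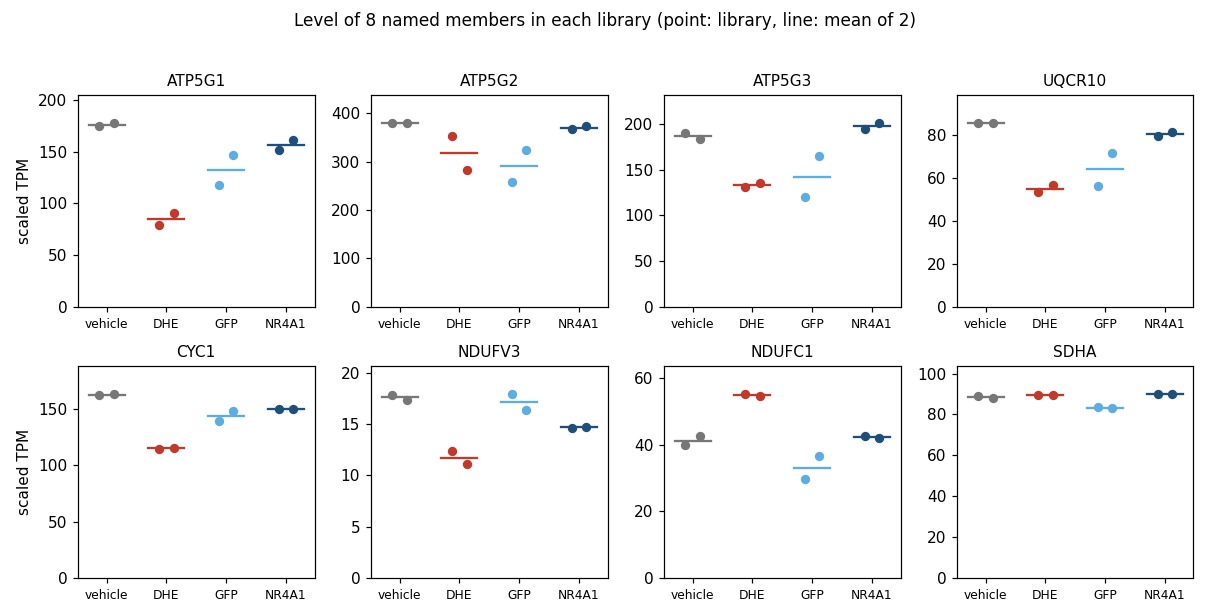
Scaled TPM (vertical axes from 0) of 8 members in each library, with points for libraries and lines for means of 2. ATP5G1 falls from 176.2 to 85.0 with DHE while ATP5G2 has spread DHE libraries, NDUFC1 rises and SDHA stays between 82.9 and 90.0.

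Complex III contributed 4 lower members of 9 (44.4%) and no higher one, with a median of -0.29. Of all genes tested 18.0% were lower, and of the abundant protein-coding genes 30.2%. UQCR10, a small subunit at chr22:30163358-30166402 (GRCh37, plus strand), measured 85.7 and 85.6 scaled TPM with vehicle and 53.4 and 56.9 with DHE, against 56.4 and 71.8 with GFP RNA and 79.8 and 81.4 with NR4A1 RNA. With DHE this was a log2 fold change of -0.63 ± 0.11 (limma adjusted p = 0.0082), or 35.5% lower. The call held in 17 of 21 settings, and its adjusted p was 0.053 without vehicle replicate 1 and 0.050 without vehicle replicate 2. CYC1, the heme-bearing cytochrome c1, measured 162 and 164 with vehicle and 115 and 116 with DHE, with 140 and 149 with GFP RNA and 150 in both NR4A1 libraries. It fell by 0.50 ± 0.06 (log2, limma adjusted p = 0.0016). UQCR11, another small subunit, measured 114 and 112 with vehicle and 82.9 and 76.8 with DHE, with 106 and 97.7 with GFP RNA and 96.3 and 107 with NR4A1 RNA (DHE value -0.50 ± 0.08, limma adjusted p = 0.0052). CYC1 and UQCR11 passed in 20 of 21 settings each. The Rieske iron-sulfur protein UQCRFS1 had a value of -0.27 (limma adjusted p = 0.057). UQCRB, which helps form the quinone site, measured 293 and 295 with vehicle, 336 and 276 with DHE, 182 and 250.0 with GFP RNA and 293 and 286 with NR4A1 RNA. Its DHE libraries lay on either side of the vehicle libraries, and its DHE value was 0.05 (limma adjusted p = 0.85).

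Complex I had 16 lower (44.4%) and 1 higher (2.78%) of 36 members, with a median of -0.30. Of all genes tested 18.0% were lower and 16.8% higher, and of the abundant protein-coding genes 30.2% were lower. Lower members were found among the core subunits of the matrix arm, the arm that holds the electron path (NDUFS3, NDUFS7 and NDUFS8, 3 of 7). They were also found among the supernumerary subunits (13 of 29). NDUFV3, a supernumerary subunit beside the NADH-oxidising flavoprotein at chr21:44299754-44333414 (GRCh37, plus strand), measured 17.9 and 17.3 with vehicle, 12.3 and 11.1 with DHE, 17.9 and 16.3 with GFP RNA and 14.6 and 14.7 with NR4A1 RNA. With DHE it fell by 0.57 ± 0.08 (log2, limma adjusted p = 0.0033), in all 21 settings. Its value with NR4A1 RNA was -0.21 (limma adjusted p = 0.14). NDUFS6, a zinc-binding subunit, measured 64.2 and 60.8 with vehicle and 50.1 and 39.0 with DHE (-0.49 ± 0.12, limma adjusted p = 0.023). NDUFC1, a small membrane-arm subunit at chr4:140188034-140223705 (GRCh37, minus strand), went the other way. It measured 39.9 and 42.6 with vehicle and 55.3 and 54.6 with DHE, the highest 2 of the 8 libraries, against 29.7 and 36.5 with GFP RNA and 42.6 and 42.1 with NR4A1 RNA. With DHE it rose by 0.41 ± 0.10 (log2, limma adjusted p = 0.024), or 32.8%. That call held in 12 of 21 settings, with an adjusted p of 0.075 to 0.14 when a vehicle or DHE library was left out and of 0.055 when either NR4A1 library was.

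Complex IV had 2 lower members of 10 (20%), near the 18.0% of all genes tested and below the 30.2% of the abundant protein-coding genes. COX5A, one of the nuclear subunits next to the catalytic core, measured 206 and 203 with vehicle and 159 and 164 with DHE, with 189 and 199 with GFP RNA and 194 and 197 with NR4A1 RNA (DHE value -0.34 ± 0.06, limma adjusted p = 0.0064). COX6A1 measured 301 and 298 with vehicle and 254 and 257 with DHE, with 252 and 278 with GFP RNA and 294 and 298 with NR4A1 RNA (DHE value -0.23 ± 0.07, limma adjusted p = 0.043). The COX5A call held in 17 of 21 settings and the COX6A1 call in 9. NDUFA4, which belongs to complex IV in spite of its name, was the single member of the complex above 0 (60.2 and 56.9 with vehicle, 61.0 and 60.6 with DHE), with a DHE value of 0.06 (limma adjusted p = 0.73). Its GFP libraries stood at 46.7 and 58.4 and its NR4A1 libraries at 60.1 and 57.8. COX7A2, the most abundant member of the complex, measured 462 and 449 with vehicle, 364 and 388 with DHE, 299 and 406 with GFP RNA and 450 and 467 with NR4A1 RNA, and passed neither test (limma adjusted p = 0.18 with DHE and 0.14 with NR4A1 RNA). COX8A measured 396.6 and 392.1 with vehicle, 367 and 336 with DHE, 293 and 355 with GFP RNA and 377 and 388 with NR4A1 RNA (DHE value -0.17, limma adjusted p = 0.27). COX6B1 measured 311 and 325 with vehicle, 303 and 307 with DHE, 300.0 and 299 with GFP RNA and 313 and 311 with NR4A1 RNA (DHE value -0.06, limma adjusted p = 0.46).

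No gene of complex II passed the test with DHE. SDHA, the flavoprotein that oxidises succinate, was the steadiest member, at 88.8 and 87.8 with vehicle and 89.4 and 89.6 with DHE, with 83.7 and 82.9 with GFP RNA and 89.8 and 90.0 with NR4A1 RNA, a DHE log2 fold change of 0.02 ± 0.05 (limma adjusted p = 0.79). SDHB, the iron-sulfur subunit, measured 82.8 and 82.3 with vehicle and 74.9 and 66.6 with DHE, with 66.8 and 72.5 with GFP RNA and 81.4 and 78.9 with NR4A1 RNA (DHE value -0.22 ± 0.08, limma adjusted p = 0.071). The membrane anchor SDHD measured 103 in both vehicle libraries and 96.0 and 86.7 with DHE, with 82.6 and 93.5 with GFP RNA and 108 and 103 with NR4A1 RNA (DHE value -0.17 ± 0.08, limma adjusted p = 0.17). The other anchor, SDHC, had libraries far apart within groups. It stood at 88.1 in GFP replicate 1 and 72.3 in DHE replicate 2, the libraries with most ribosomal RNA precursor, against 45.1 in DHE replicate 1, 57.7 and 55.9 with vehicle, 59.7 in GFP replicate 2 and 56.0 and 68.3 with NR4A1 RNA, and its value was 0.01 ± 0.27 with DHE (limma adjusted p = 0.99).

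NR4A1 RNA left most members without a call. Against GFP RNA, 2 members were higher, NDUFA8 and NDUFB4, and 0 were lower. An unadjusted p (limma) under 0.05 was found for 30 of 76 members and 4113 of 14367 genes tested. None passed the test with a change over 1.5-fold. Of all genes tested, 4.52% were higher, 4.27% lower and 4.91% passed with more than 1.5-fold in either direction. The median of the members was 0.23, against -0.02 for all genes tested, with 69 of 76 above 0, and medians were above 0 in all 5 complexes (0.22, 0.16, 0.17, 0.20 and 0.25 for complexes I to V). Both NR4A1 libraries were above both GFP libraries for 59 members (77.6%), against 28.8% of all genes tested and 36% of the other abundant protein-coding genes. This rested partly on GFP replicate 1. The median was 0.11 without that library and 0.35 without GFP replicate 2, and 0 and 39 members were then higher, against 2.44% and 10.6% of the genes tested in those fits. Without either vehicle library or either NR4A1 library, 0 members were higher.

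NDUFA8, a supernumerary subunit of complex I, measured 18.9 and 21.0 scaled TPM with GFP RNA and 26.8 and 28.9 with NR4A1 RNA, with 25.6 and 23.8 with vehicle and 19.0 and 18.6 with DHE. It rose with NR4A1 RNA by 0.47 ± 0.08 (log2, limma adjusted p = 0.023) and fell with DHE by 0.39 ± 0.08 (log2, limma adjusted p = 0.014). The NR4A1 libraries were the highest 2 of the 8. Without GFP replicate 1 the NR4A1 value was 0.39 (limma adjusted p = 0.068), and the call held in 11 of 21 settings. NDUFB4, a membrane-arm subunit, measured 82.4 and 98.3 with GFP RNA and 126 in both NR4A1 libraries, against 117 and 110 with vehicle (0.48 ± 0.11, limma adjusted p = 0.047, called in 11 of 21 settings). The c ring genes had NR4A1 values of 0.25 for ATP5G1, 0.35 for ATP5G2 and 0.49 for ATP5G3, none of which passed (limma adjusted p = 0.23, 0.17 and 0.088). ATP5J2, ATP5L and UQCRB also had high values (0.61, 0.60 and 0.44), each with GFP replicate 1 well below GFP replicate 2, and adjusted p (limma) of 0.12 to 0.21.

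The 2 control groups were compared because GFP RNA was delivered by electroporation and DMSO was not. No member passed the test between GFP RNA and vehicle, and 0.0139% of genes tested were higher (2 genes) and 0% lower. An unadjusted p (limma) under 0.05 was found for 43 of 76 members and 2692 of 14367 genes tested. Still, 72 of 76 members were below 0 with GFP RNA, with a median of -0.25 against 0.00 for all genes tested. The median was -0.15 without GFP replicate 1, and -0.35 without GFP replicate 2, where 28 members were lower and 1 higher, against 4.02% and 3.33% of the genes tested in that fit. Electroporation, the GFP RNA and any difference in handling cannot be told apart here.

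The difference between the DHE and NR4A1 effects was tested in the same fit, and these contrasts share no library. Each effect is taken against its own control, and these controls were not level. Members had a median of -0.25 in GFP RNA against vehicle, with 72 of 76 below 0. The DHE effect was lower for 26 members and higher for 0, against 10.9% and 8.03% of genes tested, and 14 members passed with more than 1.5-fold, against 7.73%. Among the other abundant protein-coding genes, 20.3% were lower and 34.2% of members were. The median difference was -0.45. ATP5G1 differed most (-1.30 ± 0.17, limma adjusted p = 0.0086), followed by ATP5J2, which did not pass (-1.01 ± 0.39, limma adjusted p = 0.12), and by ATP5G3 (-0.98 ± 0.20, limma adjusted p = 0.026) and UQCR10 (-0.97 ± 0.16, limma adjusted p = 0.015). For NDUFA8 the difference was -0.86 ± 0.11 (limma adjusted p = 0.0083). Of the 27 members lower with DHE, 23 were also called here. NDUFS3, NDUFC2, NDUFV3 and ATP5S were not, and NDUFA13, SDHB and ATP5B were called only in the difference. The count was 3 without rescaling (3.7% of all genes tested) and 0 with the equal totals named above (1.28%). It fell when a vehicle or NR4A1 library or DHE replicate 2 was left out. Without GFP replicate 2 it rose. The share over all genes tested moved the same way each time. Medians of the members then ran from -0.56 without GFP replicate 2 to -0.35 without GFP replicate 1. Those of all genes tested were 0.02 and 0.01 in these 2 fits.

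Counts of the lists that follow stand against 18.0% lower and 16.8% higher over all genes tested with DHE, and 30.2% and 14.1% over the abundant protein-coding genes. Of 5 tested subunits and carriers outside the rule, 4 were lower (80%). CYCS, cytochrome c itself, measured 114 and 112 with vehicle and 65.8 and 51.7 with DHE (-0.95 ± 0.15, limma adjusted p = 0.0057), and NDUFAB1, the mitochondrial acyl carrier protein of complex I, had a value of -0.67 (limma adjusted p = 0.0073). NDUFA4L2 (-0.99) and COX7A2L (-0.30) also passed, and COX4I1 was -0.08 (limma adjusted p = 0.48). Of 45 tested assembly factors, 24 were lower (53.3%), 0 were higher and 21 did not pass, with a median of -0.36. The lower ones included NDUFAF4 for complex I (55.5 and 55.0 with vehicle, 17.2 and 19.1 with DHE, -1.58 ± 0.08, limma adjusted p = 0.00012), COA7 for complex IV (-1.37) and BCS1L (-1.15), which inserts the Rieske protein into complex III. BCS1L was also lower with NR4A1 RNA (-0.44 ± 0.06, limma adjusted p = 0.015). It was the 1 assembly factor of 45 called lower there (2.22%), and 1 was higher (2.22%), against 4.27% and 4.52% of all genes tested. Of 76 mitochondrial ribosomal proteins, 49 were lower (64.5%) and 0 higher with DHE (median -0.46). None of 80 cytosolic ribosomal proteins passed (median -0.12), and 8 had an unadjusted p (limma) under 0.05, against 6472 of 14367 genes tested.

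Enzymes that deliver electrons to the chain included genes lower and genes higher with DHE. Among 19 tested genes of electron entry and coenzyme Q, 4 were lower with DHE (21.1%) and 1 was higher (5.26%). DHODH, which passes electrons from pyrimidine synthesis to coenzyme Q, measured 13.8 and 14.0 with vehicle and 3.63 and 2.85 with DHE (-1.95 ± 0.11, limma adjusted p = 0.00021). The coenzyme Q genes ADCK3 (-1.46) and PDSS1 (-1.09) fell as well, and ADCK3 was also lower with NR4A1 RNA (-0.76 ± 0.06, limma adjusted p = 0.0020). COQ3 fell with DHE (-0.34) and rose with NR4A1 RNA (0.31, limma adjusted p = 0.033), and COQ10A rose with DHE (0.72). With NR4A1 RNA, 1 of these 19 genes was lower (5.26%) and 3 were higher (15.8%), against 4.27% and 4.52% of all genes tested. Of 18 genes of the TCA cycle and pyruvate dehydrogenase, 5 were lower (27.8%) and 1 higher (5.56%) with DHE. IDH3A, a subunit of NAD-linked isocitrate dehydrogenase, fell by 0.95 ± 0.10 (log2, limma adjusted p = 0.0014) and OGDH rose (0.63 ± 0.08, limma adjusted p = 0.0019).

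Subunits encoded by mitochondrial DNA had another order of libraries than the nuclear ones. The 13 transcripts summed to 3041 and 2918 scaled TPM with vehicle, 2497 and 4144 with DHE, 6698 and 3565 with GFP RNA and 3150 and 3133 with NR4A1 RNA. The nuclear members summed to 11705 and 11608 with vehicle, 10132 and 9398 with DHE, 8911 and 10458 with GFP RNA and 11294 and 11471 with NR4A1 RNA. The library with the highest mitochondrial sum, GFP replicate 1, had the lowest nuclear sum, and DHE replicate 2 came next on both counts. None of the 13 passed with DHE (1 had an unadjusted p under 0.05) or with NR4A1 RNA (2 had), with medians of 0.39 and -1.31. Of the 14367 genes tested, 6472 with DHE and 4113 with NR4A1 RNA had such an unadjusted p. The DHE median was -0.16 without DHE replicate 2, and the NR4A1 median was -0.59 without GFP replicate 1 and -2.03 without GFP replicate 2. MT-ND1 measured 378 in GFP replicate 1 and 147 in DHE replicate 2 against 43.8 to 93.0 in the other 6. Without GFP replicate 1 and DHE replicate 2 together, the DHE median of the members was -0.21, against 0.02 for all genes tested in that fit.

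**Figure D4:**
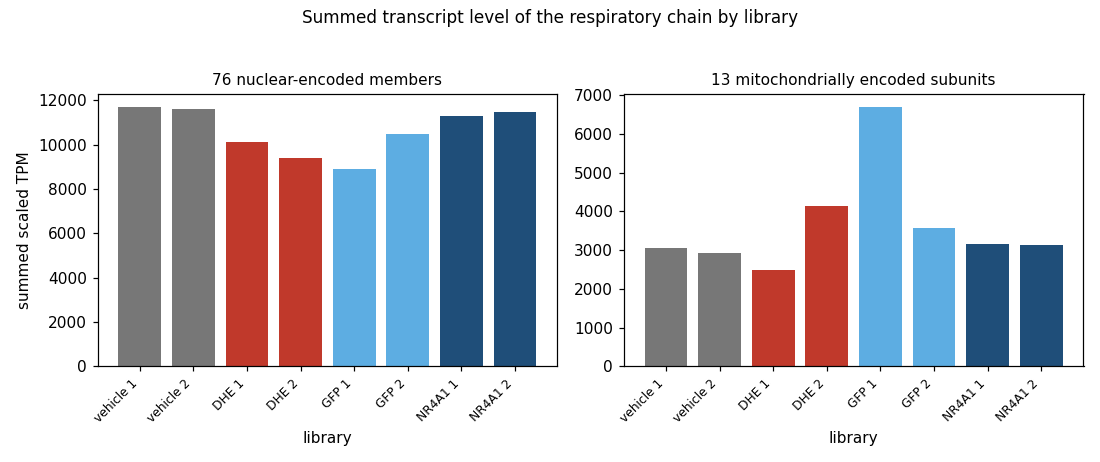
Bars from 0 give the summed scaled TPM per library of the 76 nuclear-encoded members (left) and of the 13 subunits encoded by mitochondrial DNA (right). GFP replicate 1 has the lowest nuclear sum (8911) and the highest mitochondrial sum (6698).

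Members have short transcripts. The canonical transcript had a median of 857 bases over 75 members with a length, against 3290 over 10711 genes. Across members, fold changes with DHE had a Spearman correlation with transcript length of 0.15, and with NR4A1 RNA of -0.28. Over the 10711 genes these were 0.21 and -0.17. Such genes share the same libraries and are no replicates. Among 4735 other protein-coding genes within the members' wide length range and with at least 10 scaled TPM, the DHE median was -0.12 and the NR4A1 median 0.04. Of these, 32.4% were lower with DHE. That range kept 4735 of the 5757 abundant genes of any length, so it did not match them to the members' short transcripts. An effect of length was not tested.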

How the data were processed

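RNA-seq libraries of MOLM-14 cells were made from total RNA after ribosomal RNA reduction, with random priming. The authors ran Trim Galore and then Salmon (version 0.11.0, Gencode annotation). The deposited values are TPM per gene in each of the 8 libraries, which the authors did not scale between libraries. TPM keeps no depth, so depth per library is unknown and no counting intervals are given. Columns holding the authors' own fold changes and p-values, and the sheets of rows selected by them, were not used, nor were the chromatin samples of the series.

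Each library was divided by a median-of-ratios size factor. The filter asked for 1 TPM or more in 2 or more libraries (left in: 14367 of 57964 entries, 1449 of which repeat a symbol), and log2(scaled TPM + 0.5) was fitted with limma 3.58.1 in R 4.3.3 (trended variance, 1 mean per group, 4 residual degrees of freedom). P-values were adjusted by Benjamini-Hochberg over all genes tested, with calls at 0.05 and, where stated, a change over 1.5-fold. The fit was tested on simulated data in which genes varied independently and the planted changes were larger than those of most members. That test does not cover small changes shared by many genes.

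Members and lists were chosen with earlier results of these data known. Values in every library are given for members called with more than 1.5-fold, for the member of smallest p in each direction in each complex, for the SDH genes, the c ring genes and the expressed genes of the tissue isoform pairs of complex IV. Promoters came from RefSeq (GRCh38.p14) and were matched by symbol, and gene positions are on GRCh37. Alternatives were other scalings, pseudocounts and filters, fits to the compared libraries only, a replicate block, and leaving out libraries (20 settings). Of the scalings, 2 were chosen after seeing the data. Replicate numbers were not taken as pairs.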

Additional observations from a re-analysis of the deposited data

How the results depend on the processing

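With 2 libraries a group, counts of called members moved more than medians did. The median of the members minus that of all genes tested stayed between -0.33 and -0.22 with DHE and between 0.12 and 0.37 with NR4A1 RNA over all settings. The cause of the changes below was not tested.

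Without rescaling, 7 members were lower and 0 higher with DHE, against 12.3% and 12% of all genes tested. With NR4A1 RNA 0 were higher (2.12% of all genes), and 3 were lower in the difference of effects (3.7%). The median of GFP RNA against vehicle was then -0.36. With equal totals after leaving out listed ribosomal RNA and polymerase III transcripts, 2 members were lower and 0 higher with DHE (8.24% and 7.66% of all genes). With NR4A1 RNA 0 were higher (1.71%), and 0 were lower in the difference (1.28%). The median of GFP RNA against vehicle was -0.47. The NR4A1 median was 0.46 and the median difference -0.68, while the median of all genes was 0.18 with NR4A1 RNA. With equal totals leaving out all precursor transcripts, chosen after seeing the data, the median difference was -0.32, and the NR4A1 medians of assembly factors and mitochondrial ribosomal proteins turned to -0.032 and -0.0091. Upper quartile scaling gave 17 lower members with DHE, against 14.7% of all genes tested. The complex II median was then 0.013, with the median of all genes at 0.13. Without a filter, 0 members were higher with DHE, against 5.68% of the genes tested in that fit. With NR4A1 RNA 1 was higher (1.2% of those genes), and 8 were lower in the difference (2.52%). A fit to the 4 libraries compared gave 0 higher with NR4A1 RNA, against 1.18% of the genes tested in that fit.

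Without GFP replicate 1 and DHE replicate 2 together, 46 members were lower and 2 higher with DHE, 11 were higher with NR4A1 RNA (median 0.12), 45 were lower in the difference (median -0.32), the mitochondrially encoded median with DHE was -0.17 and that of mitochondrial ribosomal proteins with NR4A1 RNA was -0.024.

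Leaving out 1 library at a time gave 4 to 45 lower and 0 to 1 higher members with DHE, 0 to 39 higher and 0 to 1 lower with NR4A1 RNA (median 0.11 to 0.35), 0 to 28 lower and 0 to 1 higher between GFP RNA and vehicle (median -0.35 to -0.15), and 0 to 55 lower in the difference (median -0.56 to -0.35). List medians then ranged from -0.16 to 1.02 for mitochondrially encoded subunits with DHE and, with NR4A1 RNA, from -2.03 to -0.59 for these, from -0.00275 to 0.088 for assembly factors and -0.031 to 0.15 for mitochondrial ribosomal proteins.

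Deviations of same-numbered libraries correlated by -0.138 to 0.0249 over all genes, so the numbers were not taken as pairs. Over the members alone they ran from -0.354 (GFP with DHE) to 0.385 (NR4A1 with DHE). With a replicate block, 20 members were lower with DHE, against 15.6% of all genes tested. Of the members, 0 were higher with NR4A1 RNA (2.33% of all genes) and 9 lower in the difference (6.2%). Over all genes, NR4A1 RNA gave 650 higher and 614 lower calls, against 304 and 190 without rescaling, 157 and 86 with 4 libraries and 335 and 282 with the block.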
